A study of Mus musculus with 4 samples.

Results

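The mouse genome encodes a large superfamily of cadherins, of which 105 of the 55401 genes in the deposited table were described here. They were chosen by symbol alone, as the numbered Cdh genes, the Pcdh, Dsc and Dsg genes and the Celsr genes, with pseudogene symbols left out. The set held 5 type I and 13 type II classical cadherins, 5 other Cdh genes, 9 desmosomal cadherins, 58 clustered protocadherins, 12 non-clustered protocadherins and 3 Celsr genes. The 105 rows carried 104 symbols, because Pcdha11 occurred with 2 identifiers, and 70 of them lay on chromosome 18 of mm10.

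RNA-seq compared WT E14 cells, a mouse embryonic stem cell (mESC) line, with Haspin-KO E14 cells, in 2 libraries each. Haspin is the kinase that phosphorylates histone H3 at threonine 3 in mitosis. The Haspin-KO lines were made with CRISPR/Cas9 and a pair of gRNAs, and single clones without this histone mark were picked, so clonal differences and the loss of Haspin cannot be told apart. According to the study's methods, all cells were grown in serum with LIF, PD0325901 and CHIR99021, with feeders of mitomycin C-treated mouse embryonic fibroblasts used for passage and gelatin-coated dishes used for assays. The sources used here do not name the surface of the RNA-seq cultures in particular, from which knockout line a given library was made or whether the replicates were separate cultures, so the spread between replicates may be technical.

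Cadherins are calcium-dependent adhesion molecules whose extracellular repeats bind the same or a related cadherin on the neighbouring cell. Classical cadherins hold the actin cytoskeleton through beta-catenin, alpha-catenin and p120-catenin, whereas desmosomal cadherins hold intermediate filaments through plakoglobin, plakophilins and desmoplakin. Clustered protocadherins are known from neurons, where each variable first exon has its own promoter and, in the alpha and gamma clusters, is spliced to constant exons shared by the cluster. In mESCs, E-cadherin, the product of Cdh1, holds the compact colony together.

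The library totals were 21834847 and 17452307 counts in WT and 14207828 and 14436750 counts in Haspin-KO. A gene with at most 3 counts in a library was taken as at the floor, which lay between 0.137 and 0.211 CPM (counts scaled to the library total) and covers counting error only. Haspin itself had 875 and 619 counts in WT and 149 and 209 counts in Haspin-KO, and fell by 1.60 on the log2 scale (SE 0.16, adjusted p = 0.00154). The mESC markers Dppa5a, Pou5f1 and Nanog averaged 1469, 445 and 384 FPKM (counts per exonic length and library total), and 0 of 10 such markers were called. With an unadjusted p under 0.05 in edgeR, 3 of the 10 were lower in Haspin-KO and 0 higher. Over all genes the share was 10.4% in each direction. Klf4 (log2 fold change -0.295, adjusted p = 0.0604) and Dppa5a (-0.209, adjusted p = 0.12) were among the 3. The 10 markers summed to 5830 and 6020 CPM in WT and 5380 and 5540 CPM in Haspin-KO. Counts of each member are given below in the order of replicates 1 and 2. Where both libraries of one group lay above both of the other, this is a description and not a test. The share of all genes that separated in this way was not computed.

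Many of the members had few or no counts in these cells. Of the 105 members, 49 never exceeded the floor, and 25 of these had no count in any library. The remaining 56 exceeded it in at least 1 library, between 43 and 51 of them in any single library. The low-count filter of edgeR kept 34 members, and 71.5% and 69.8% of all member counts in WT and 70.8% and 68.3% in Haspin-KO belonged to Cdh1.

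**Figure D1:**
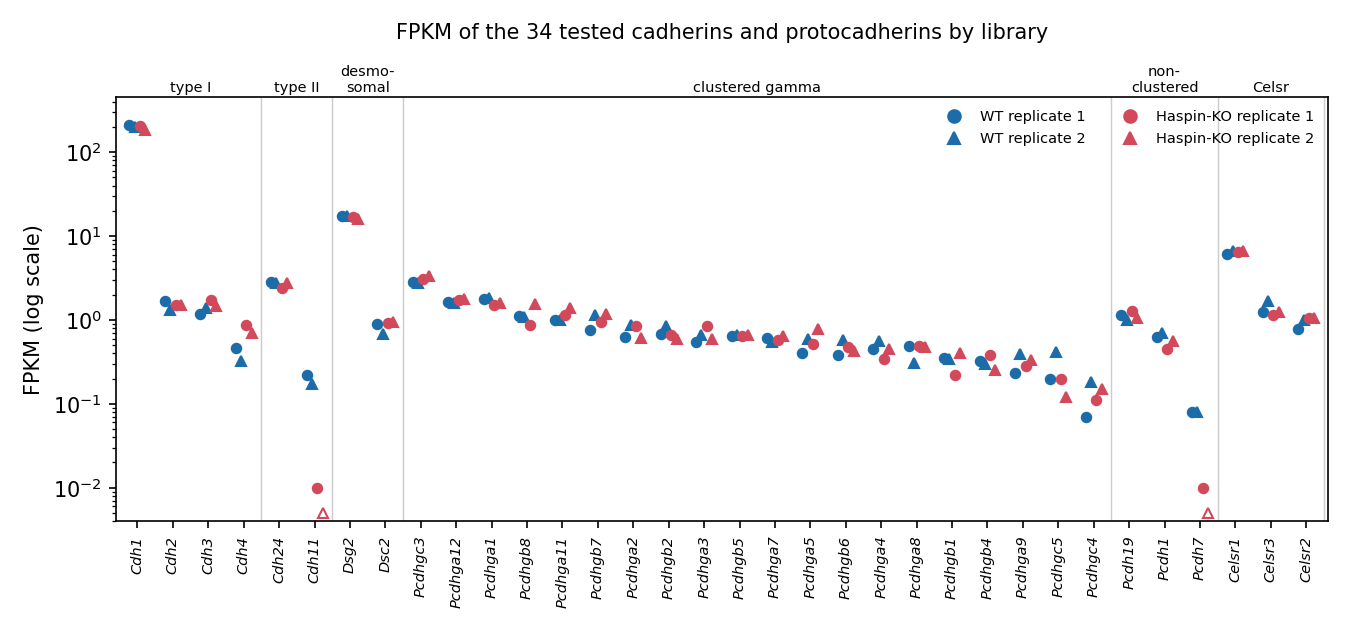
FPKM (log scale) of the 34 members that passed the low-count filter, grouped by subfamily, with 1 symbol per library (circles, replicate 1; triangles, replicate 2; blue, WT; red, Haspin-KO). Open symbols stand for an FPKM of 0 and are drawn at 0.005. Cdh1 lies near 200 FPKM in all 4 libraries, and the WT and Haspin-KO symbols lie far apart for Cdh11 and Pcdh7.

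Of the 34 tested members, 1 was called between Haspin-KO and WT. A call needed an adjusted p under 0.05 in edgeR's quasi-likelihood test over all genes and a fold change over 2. Cdh11 was called lower in Haspin-KO, and 0 members were called higher. Over all 15580 genes tested, 0.501% were called lower and 0.327% higher. With an unadjusted p under 0.05, 2 of the 34 tested members were lower (Cdh11 and Pcdh7) and 1 was higher (Cdh4), where the share over all genes was 10.4% in each direction. The median log2 fold change was 0.01 over the tested members and -0.004 over all tested genes, with 18 members above 0 and 16 below it. For 27 of the 34 members the 95% interval lay within a 2-fold change either way, as it did for 12013 of the 15580 genes. Cdh11 and Pcdh7 passed the filter through their WT libraries alone, so their place among the tested members rests on their WT level. Through Haspin-KO libraries alone, 0 members passed. Over all tested genes, 149 passed through WT alone and 169 through Haspin-KO alone.

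**Figure D2:**
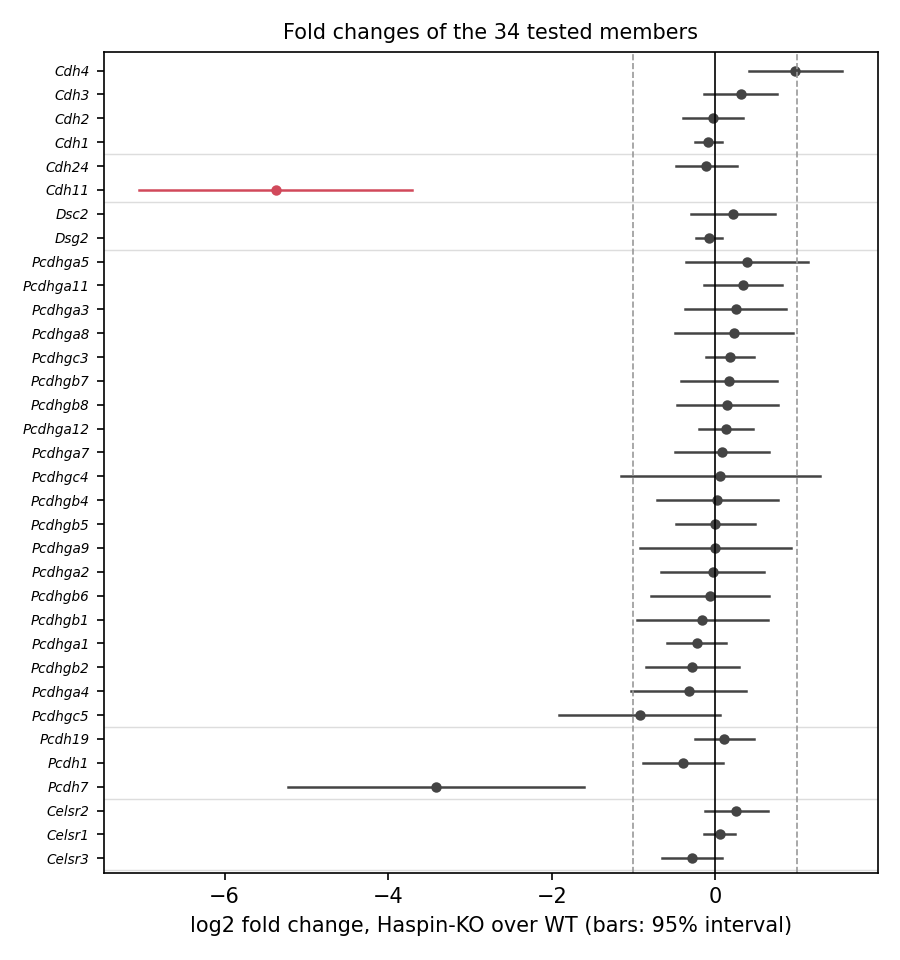
Log2 fold change of Haspin-KO over WT for the 34 tested members, grouped as in the plot of FPKM, with 95% intervals as bars and dashed lines at a 2-fold change. Cdh11 (red) is the member with an adjusted p under 0.05, at -5.38, Pcdh7 lies at -3.42 and Cdh4 at 0.98, and the other 31 lie between -0.92 and 0.38.

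Among the type I classical cadherins, Cdh1 (E-cadherin, chr8:106603351-106670246) dominated in every library. Its FPKM was 212 and 201 in WT and 207 and 184 in Haspin-KO, and only 159 to 186 genes of the whole table had a higher FPKM in a library. The counts were 21166 and 16054 in WT and 13476 and 12150 in Haspin-KO. The groups overlapped in FPKM, and the log2 fold change was -0.08 (95% interval -0.25 to 0.08, adjusted p = 0.553). Cdh2 (N-cadherin, a cadherin of neural and mesenchymal cells) stood far below it, with an FPKM ratio of Cdh1 to Cdh2 between 123 and 151 per library. Cdh2 had 298 and 187 counts in WT and 171 and 173 counts in Haspin-KO, and its log2 fold change was -0.03 (interval -0.39 to 0.33). Cdh3 (P-cadherin), which lies upstream of Cdh1 on the same strand, had 113 and 105 counts in WT and 107 and 92 counts in Haspin-KO. After scaling, both Haspin-KO libraries of Cdh3 lay above both WT libraries, but its log2 fold change of 0.31 had an interval of -0.14 to 0.76.

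Cdh4 (R-cadherin, chr2:179442431-179899373) had the highest log2 fold change of the tested members. It had 73 and 41 counts in WT and 90 and 73 counts in Haspin-KO, and averaged 0.39 ± 0.10 FPKM in WT and 0.79 ± 0.12 FPKM in Haspin-KO (SD, n = 2). Both Haspin-KO libraries lay above both WT libraries. The log2 fold change was 0.98 (SE 0.26, interval 0.41 to 1.55), and the adjusted p of 0.0772 missed the threshold. This depended on the setting. Without the low-count filter the adjusted p was 0.0112 at a log2 fold change of 0.95, under the 2-fold limit, and without Haspin-KO replicate 2 the log2 fold change was 1.12 and Cdh4 was called higher (adjusted p = 0.0163). Cdh15 (M-cadherin of muscle) had 13 and 13 counts in WT and 7 and 5 in Haspin-KO and was not tested. Both Haspin-KO libraries of Cdh15 were lower also after scaling.

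Of the type II classical cadherins, Cdh24 and Cdh11 were the 2 of 13 that passed the filter, and Cdh24 was the most abundant per length. Cdh24 had 214 and 167 counts in WT and 119 and 139 counts in Haspin-KO, with mean FPKM of 2.78 ± 0.05 and 2.58 ± 0.25 (SD, n = 2) and a log2 fold change of -0.11 (interval -0.48 to 0.26). Cdh11 (OB-cadherin, a cadherin of mesenchymal cells and osteoblasts, chr8:102632095-102785642) had 42 and 27 counts in WT and 1 and 0 counts in Haspin-KO. Both WT libraries were thus well above the floor of 3 counts and both Haspin-KO libraries below it. The scaled sum of counts was 50.4 times higher in WT, with a 95% counting interval from 8.76 to 2020, and the fitted log2 fold change was -5.38 (SE 0.74, interval -7.04 to -3.71, adjusted p = 0.00796). The call was lost without WT replicate 1, where the adjusted p was 0.0631 and the log2 fold change -5.19. DESeq2 gave a log2 fold change of -5.65 (SE 1.63) and no adjusted p for Cdh11.

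The other type II genes were too low to test. Cdh22 had 10 and 13 counts in WT and 1 and 6 in Haspin-KO. Cdh9 had 3 and 8 counts in WT and 1 and 8 in Haspin-KO. Cdh5 (VE-cadherin of endothelium), Cdh6, Cdh8, Cdh12 and Cdh20 exceeded the floor in at least 1 library without exceeding 11 counts, and Cdh7, Cdh10, Cdh18 and Cdh19 never exceeded it. After scaling, both WT libraries of Cdh22 lay above both Haspin-KO libraries, and those of Cdh12, with 1 and 1 counts against 7 and 2, lay below them, while the groups overlapped for Cdh5, Cdh6, Cdh8, Cdh9 and Cdh20. Among the other Cdh genes, Cdh17 (LI-cadherin of intestine) had 5 counts in each WT library and 0 in each Haspin-KO library. The mean WT level of Cdh17, 0.258 CPM, stood 1.23 times over the mean floor of the Haspin-KO libraries, 0.209 CPM. This ratio takes the WT counts as exact and leaves out their counting error. It was computed because the counts of Cdh17 lay on either side of the floor, so it is not a test and sets no least change. DESeq2 gave Cdh17 a log2 fold change of -4.33 (SE 2.48, unadjusted p = 0.0805). Cdh13 (T-cadherin, which is anchored by a lipid and has no cytoplasmic tail) had 4 and 3 counts in WT and 4 and 5 in Haspin-KO. Cdh23 (a tip-link protein of hair cells) had 11 and 10 counts in WT and 2 and 7 in Haspin-KO. After scaling, Cdh17 and Cdh23 were lower in both Haspin-KO libraries and Cdh13 was higher in both, at levels too low for the edgeR filter. For Cdh23 the nearest libraries were close, at 0.503 CPM in WT and 0.490 CPM in Haspin-KO.

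The non-clustered protocadherins held a pair of genes with low counts in WT and almost none in Haspin-KO. Pcdh7 had 18 and 14 counts in WT and 2 and 0 counts in Haspin-KO. The WT libraries were above the floor and the Haspin-KO libraries below it, and the scaled sum of counts was 11.7 times higher in WT, with a counting interval from 2.98 to 101. The fitted log2 fold change was -3.42 (SE 0.81, interval -5.23 to -1.60), with an adjusted p of 0.0602. Whether Pcdh7 passed depended on the setting. It was called without the low-count filter (adjusted p = 0.00654) and without Haspin-KO replicate 1, which held both Haspin-KO counts (adjusted p = 0.0198), where the spread came from the WT pair alone. Exonic bases of Pcdh7 overlapped 4932441J04Rik on the opposite strand over 21.1% of their length, and the strand setting of the counting is not given in the sources used here. Pcdh18 had 9 and 10 counts in WT and 2 and 2 in Haspin-KO. It did not pass the filter, and its scaled sum was 3.47 times higher in WT (counting interval 1.15 to 14). DESeq2 gave Pcdh18 a log2 fold change of -1.82 (SE 1.41, unadjusted p = 0.196). The counting intervals of Pcdh7 and Pcdh18 leave out the spread between libraries, and were computed because the counts lay on either side of the floor.

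The promoter windows of Pcdh7 and Pcdh18 are shown because these genes were both low in Haspin-KO and could be read from the RefSeq table, which held 24 of the 104 member symbols and no entry for Cdh11. Each window runs from 250 bases before to 50 bases after the start (GRCm38.p6). That of Pcdh7 is chr5:57717831-57718130 on the plus strand and that of Pcdh18 is chr3:49757267-49757566 on the minus strand, each printed on the strand of the gene. The GC box GGGCGG was searched on both strands of each window. So were the TATA box, read as TATAAA, and the E-box of the E-cadherin promoter, read as CAGGTG. Matches are in capitals, and none overlapped another.
Pcdh7: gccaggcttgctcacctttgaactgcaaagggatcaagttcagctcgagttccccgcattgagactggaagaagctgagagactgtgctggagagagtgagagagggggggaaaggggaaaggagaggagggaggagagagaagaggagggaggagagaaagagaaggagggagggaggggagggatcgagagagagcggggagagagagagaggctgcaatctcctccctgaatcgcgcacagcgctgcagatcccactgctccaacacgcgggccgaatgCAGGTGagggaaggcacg
Pcdh18: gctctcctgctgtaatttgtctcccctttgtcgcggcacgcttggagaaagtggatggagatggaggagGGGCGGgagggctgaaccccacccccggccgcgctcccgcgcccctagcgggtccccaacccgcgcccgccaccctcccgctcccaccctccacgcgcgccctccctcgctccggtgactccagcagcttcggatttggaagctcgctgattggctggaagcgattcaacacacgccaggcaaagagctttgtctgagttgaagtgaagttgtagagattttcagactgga
Pcdh7 held 1 CAGGTG, a sequence found in 20.2% of the 32851 promoter windows in the table. Pcdh18 held 1 GGGCGG, found in 35.7% of them. TATAAA, found in 13.6%, was in neither window. Pcdh7 had 11 CpG dinucleotides and Pcdh18 had 23, against a median of 7, and 59.3% and 63.0% of their bases were G or C, against a median of 52.7%. The windows thus shared none of the motifs searched, and both had more CpG than the median window.

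The other non-clustered protocadherins differed less between the groups. Pcdh19, an X-linked gene of brain development, had 260 and 182 counts in WT and 190 and 157 in Haspin-KO, and a log2 fold change of 0.11 (interval -0.25 to 0.47). Pcdh1 had 121 and 107 counts in WT and 56 and 71 in Haspin-KO. Both Haspin-KO libraries of Pcdh1 were lower also after scaling, but the log2 fold change of -0.40 had an interval of -0.89 to 0.09 (adjusted p = 0.333). Pcdh8, a gene of the early paraxial mesoderm, had 2 and 9 counts in WT and 8 and 4 in Haspin-KO. Pcdh17 had 8 and 3 counts in WT and 11 and 3 in Haspin-KO. Neither separated the groups, and the other 6 members never exceeded the floor.

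Beside the low counts of Cdh11, Pcdh7, Pcdh18, Cdh17, Dsg3 and Pcdhb14 in Haspin-KO, markers of fibroblasts were also low there. Of 20 fibroblast markers, a list drawn up with earlier results of these data known, 15 were tested, 10 were called lower and 0 higher. The shares over all tested genes were 0.501% lower and 0.327% higher. The 10 were the matrix genes Col1a1, Col1a2, Col3a1, Col5a2, Col6a3, Postn and Tnc, the crosslinking enzymes Lox and Loxl1, and the transcription factor Prrx1. Of these, Col1a1 and Col5a2 passed the filter in both groups. The others passed it through their WT libraries alone, so their place among the tested markers rests on their WT level. The number called is thus not a test of the list. Their counts could be high in WT: Lox had 1215 and 657 counts in WT and 0 in both Haspin-KO libraries, and Col1a1 had 1063 and 575 counts in WT and 24 and 24 in Haspin-KO. The summed level of the list was 259 and 194 CPM in WT and 41.5 and 40.2 CPM in Haspin-KO, 5.54 times higher in WT. Beyond the 10 called, Pdgfrb had 287 and 186 counts in WT and 99 and 91 in Haspin-KO and fell by 0.85 on the log2 scale (adjusted p = 0.0392), under the 2-fold limit, and S100a4 had 22 and 9 counts against 0 and 0 and was not tested. The other 4 tested markers, Fbn1 among them (log2 fold change -0.10), did not pass the test. Twist1 had 110 and 71 counts in WT and 58 and 58 in Haspin-KO (log2 fold change -0.18), Pdgfra had 39 and 30 against 46 and 16 (0.30), and Thy1 had 55 and 48 against 37 and 16 (-0.51). Lum was at 0 in all 4 libraries. Between the WT libraries, the ratio of replicate 1 to replicate 2 in CPM was 1.33 for the list, 1.23 for Cdh11, 1.02 for Pcdh7 and 0.714 for Pcdh18. It was 1.05 for Cdh1, 1.26 for Cdh2 and 1.41 for Cdh4, which were not called lower in Haspin-KO. In WT replicates 1 and 2, Dsg3 stood at 0.37 and 0.23 CPM, Cdh17 at 0.23 and 0.29 CPM and Pcdhb14 at 0.23 and 0.69 CPM. The part of such cells in the member values was not tested, and in bulk RNA fewer cells of a type and less RNA per cell cannot be told apart.

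**Figure D3:**
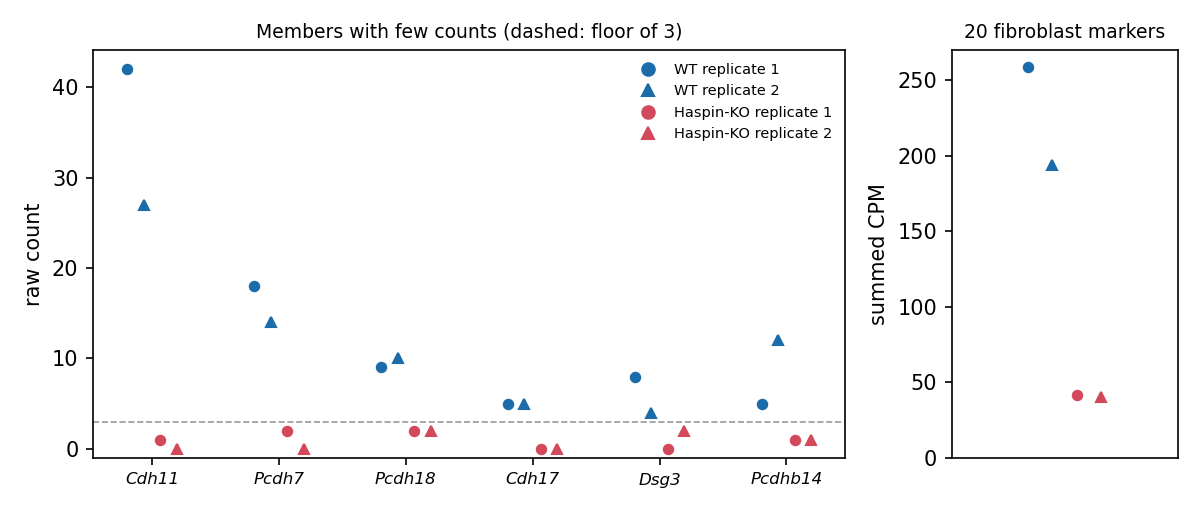
Left, raw counts of the 6 members that exceeded 3 counts (dashed line) in both libraries of WT and in neither of Haspin-KO, with 1 symbol per library (circles, replicate 1; triangles, replicate 2; blue, WT; red, Haspin-KO); right, CPM summed over 20 fibroblast markers. All Haspin-KO symbols of the 6 members lie at 0 to 2 counts, and the marker sum is 259 and 194 CPM in WT and 41.5 and 40.2 CPM in Haspin-KO. No member showed the reverse pattern. The floor is a raw count and the WT libraries are deeper, so genes with few counts exceed it more easily in WT. The share of all genes with this pattern was not computed.

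Desmosomal cadherins were represented by Dsg2 and Dsc2, the pair made by simple epithelia. Dsg2 had 3164 and 2478 counts in WT and 1983 and 1918 counts in Haspin-KO. Its mean FPKM was 17.4 ± 0.25 in WT and 16.5 ± 0.57 in Haspin-KO (SD, n = 2), and the ratio of Cdh1 to Dsg2 in FPKM lay between 11.4 and 12.3 in every library. The log2 fold change of Dsg2 was -0.08 (interval -0.24 to 0.08, adjusted p = 0.569). Dsc2 had 103 and 63 counts in WT and 68 and 72 in Haspin-KO, and a log2 fold change of 0.22 (interval -0.30 to 0.73). After scaling, both Haspin-KO libraries lay below both WT libraries for Dsg2 and above them for Dsc2, and neither gene passed the test. Dsc3 and Dsg3, desmosomal cadherins of stratified epithelia, were near the floor. Dsc3 had 7 and 3 counts in WT and 6 and 4 in Haspin-KO. Dsg3 had 8 and 4 counts in WT and 0 and 2 in Haspin-KO, a scaled ratio of 4.39 whose counting interval of 0.976 to 40.3 includes equality. Dsc1, Dsg1a, Dsg1c and Dsg4 had 0 counts in all libraries, and Dsg1b never exceeded the floor.

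The 58 clustered protocadherins lie in tandem on chromosome 18 and were read almost only from the gamma cluster. The 14 alpha genes summed to 6 and 4 counts in WT and 2 and 10 counts in Haspin-KO. Of these, 9 had no count in any library, and Pcdhac2 alone exceeded the floor, with 8 counts in Haspin-KO replicate 2. The 22 beta genes, which have a single coding exon each, summed to 29 and 33 counts in WT and 16 and 12 counts in Haspin-KO, and 19 of them never exceeded the floor. Pcdhb22 had 12 and 13 counts in WT and 7 and 4 in Haspin-KO. Pcdhb14 had 5 and 12 counts in WT and 1 and 1 in Haspin-KO, a scaled ratio of 6.21 with a counting interval of 1.47 to 55.4. That interval leaves out the spread between libraries, and DESeq2 gave a log2 fold change of -2.72 (SE 1.70, unadjusted p = 0.11). Both WT libraries were higher for Pcdhb22 and Pcdhb14, at counts too low for the edgeR filter. Pcdhb21, the other beta gene over the floor, went the other way. It had 1 and 0 counts in WT and 2 and 4 in Haspin-KO, and was not tested.

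All 22 gamma genes exceeded the floor, and 20 were tested. The cluster as a whole gave 82.1 and 90.2 CPM in the WT libraries against 84.2 and 93.9 CPM in Haspin-KO, so that the groups overlapped. The log2 fold changes ranged from -0.92 to 0.38 with a median of 0.04, and 16 of the 20 intervals lay within a 2-fold change. Called genes numbered 0 in either direction, also 0 with an unadjusted p under 0.05. Over all tested genes, 0.501% were called lower and 0.327% higher, and 10.4% had an unadjusted p under 0.05 in each direction. The groups also overlapped in each subfamily. The 12 Pcdhga genes together had 42.6 and 45.4 CPM in WT against 44.0 and 47.8 CPM in Haspin-KO. The 7 Pcdhgb genes had 22.0 and 25.3 CPM against 21.5 and 26.0 CPM, and the 3 Pcdhgc genes 17.5 and 19.5 CPM against 18.7 and 20.1 CPM.

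Per length, the gamma isoforms ranged from a mean of 0.105 FPKM for Pcdhga10 to 2.99 FPKM for Pcdhgc3 over the 4 libraries. Pcdhgc3, a C-type isoform, had 339 and 266 counts in WT and 238 and 263 in Haspin-KO. It took between 17.0% and 19.7% of the gamma counts in each library, and both Haspin-KO libraries lay above WT after scaling, with a log2 fold change of 0.18 (interval -0.11 to 0.47). Pcdhga12, at a mean of 1.69 FPKM, had 239 and 183 counts in WT and 165 and 172 in Haspin-KO, and a log2 fold change of 0.13. Both Haspin-KO libraries of Pcdhga12 lay above WT after scaling. Pcdhga1, the first gene of the cluster, had 209 and 172 counts in WT and 115 and 123 in Haspin-KO, and both Haspin-KO libraries were lower after scaling, by a log2 fold change of -0.23 (interval -0.59 to 0.13, adjusted p = 0.451). Pcdhgb8 had 112 and 86 counts in WT and 57 and 103 in Haspin-KO, and the Haspin-KO libraries lay on either side of WT. The lowest log2 fold change was that of Pcdhgc5, which had 34 and 55 counts in WT and 22 and 13 in Haspin-KO (adjusted p = 0.266). Both Haspin-KO libraries of Pcdhgc5 were lower also after scaling. The other C-type isoform, Pcdhgc4, stood between 9 and 18 counts per library. Along the cluster, the mean FPKM rose gene by gene from Pcdhga10 (0.105) through Pcdhgb7 (1.00), Pcdhga11 (1.14), Pcdhgb8 (1.15) and Pcdhga12 to Pcdhgc3, and dropped to 0.128 at Pcdhgc4 and 0.233 at Pcdhgc5. On exonic length that no other gene on either strand shares, this order was not kept. The values were 2.59 CPM per kilobase for Pcdhgb7, 4.30 for Pcdhga11, 2.12 for Pcdhgb8, 2.73 for Pcdhga12 and 9.03 for Pcdhgc3. Pcdhga10 had no value. With genes of the same strand alone, the unshared length was 2594 bases in place of 1823 for Pcdhgb7 and 3380 in place of 1821 for Pcdhgc3. Whether the order is kept thus depends on the strand setting, which is not given in the sources used here.

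**Figure D4:**
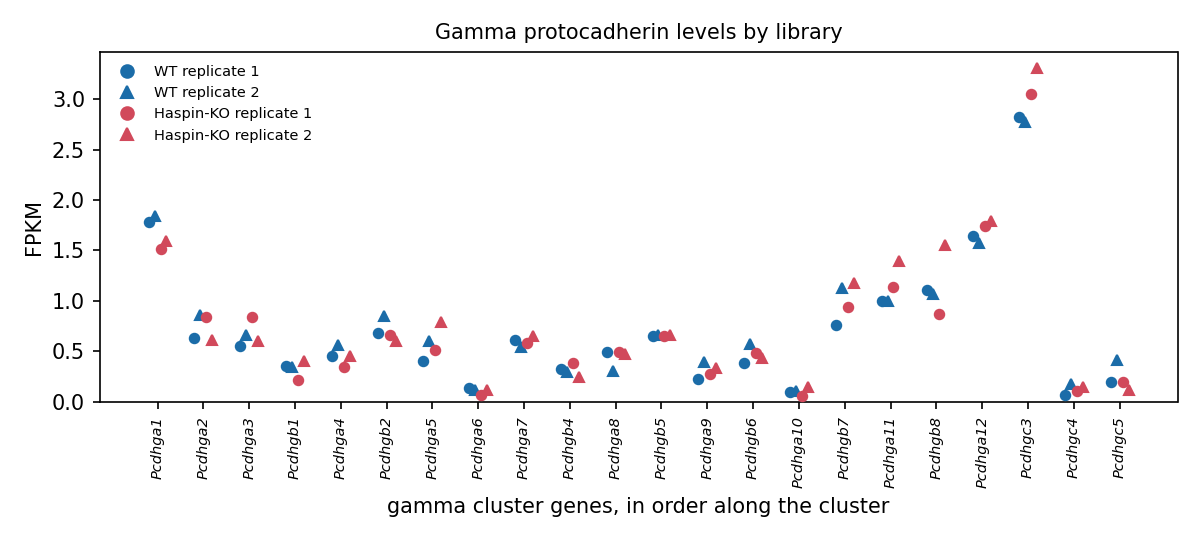
FPKM of the 22 gamma protocadherins in their order along the cluster, with 1 symbol per library (circles, replicate 1; triangles, replicate 2; blue, WT; red, Haspin-KO). Pcdhga1, Pcdhga12 and Pcdhgc3 stand out in all 4 libraries, with mean FPKM of 1.68, 1.69 and 2.99, while Pcdhga6, Pcdhga10 and Pcdhgc4 have means of 0.113, 0.105 and 0.128 FPKM.

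Levels of single gamma and alpha isoforms carry a limit of the counting. In the GENCODE annotation of the same build, each gamma gene shared between 31.5% and 100% of its exonic bases with other genes, and each alpha gene between 48.6% and 93.0%, mainly because the constant exons are annotated in every isoform. How reads in shared exons were counted is not given in the sources used here. Pcdhga10 had no exonic base of its own, as the antisense gene Gm26672 covers its variable exon, yet it had 10 and 9 counts in WT and 4 and 10 in Haspin-KO. CPM was also divided by the exonic length that no other gene on either strand shares. On it, 3 of the 4 highest gamma genes by FPKM stayed among the highest 4, and Pcdhga11 took the place of Pcdhgb8. With genes of the same strand alone, the unshared length was 2637 bases in place of 1256 for Pcdhga11 and 2613 in place of 0 for Pcdhga10. For Pcdhgb8 it was 2499 bases either way, so the exchange depends on the strand setting of the counting.

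The Celsr genes, which encode cadherins with a membrane-spanning receptor domain that act in planar cell polarity, were all expressed. Celsr1 had 1553 and 1334 counts in WT and 1078 and 1118 in Haspin-KO, with mean FPKM of 6.35 ± 0.32 and 6.59 ± 0.10 (SD, n = 2) and a log2 fold change of 0.05 (interval -0.14 to 0.24). Celsr2 had 195 and 200 counts in WT and 172 and 177 in Haspin-KO, and a log2 fold change of 0.26 (interval -0.12 to 0.64). Both Haspin-KO libraries of Celsr2 lay above both WT libraries after scaling. Celsr3 had 331 and 352 counts in WT and 198 and 218 in Haspin-KO, and a log2 fold change of -0.28 (interval -0.65 to 0.09). The 3 genes thus lay on both sides of 0, and each interval included 0.

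The partners of the cadherins were set beside them. For the counts of called genes in these lists, the shares over all tested genes were 0.501% lower and 0.327% higher. Of 20 catenins and desmosomal plaque proteins, 17 were tested and 0 were called. Ctnnb1 (beta-catenin), Ctnna1 (alpha-catenin) and Jup (plakoglobin) averaged 165, 94.2 and 41.2 FPKM and had log2 fold changes of 0.03, 0.06 and 0.00. Perp, a desmosomal membrane protein and p53 target, had 435 and 262 counts in WT and 486 and 388 in Haspin-KO, and rose by 0.80 on the log2 scale (SE 0.16, adjusted p = 0.0359), under the 2-fold limit. Pkp2, a plakophilin, had a log2 fold change of 0.58 (adjusted p = 0.065). Of 15 further cadherin superfamily genes, 7 were tested and 0 called, with Fat1 at 0.42 (adjusted p = 0.0772), Clstn1 at -0.20 and Clstn3 at -0.18 on the log2 scale. Cdhr2 stood at 2.21 (adjusted p = 0.0812) and Clstn2 at 0.93 (adjusted p = 0.228). Cdhr2 had 4 and 2 counts in WT and 11 and 10 in Haspin-KO, and passed the filter through its Haspin-KO libraries alone. Of 16 regulators of clustered protocadherin promoters, all were tested and 0 were called, and the log2 fold changes of Rad21, Dnmt1 and Ctcf were 0.10, 0.01 and 0.10. With an unadjusted p under 0.05, 7 of the 16 were higher and 0 lower, against 10.4% of all genes in each direction, with Dnmt3b at 0.31 (adjusted p = 0.0717) and Nipbl at 0.29 (adjusted p = 0.1001) among them. Of 12 nectins and cadherin-shedding proteases, 11 were tested and 0 called, with Nectin2 at -0.09 and Ncstn at -0.11 on the log2 scale. Adam10 stood at 0.34 (adjusted p = 0.0705), Nectin4 at 0.88 (adjusted p = 0.176) and Psen2 at -0.53 (adjusted p = 0.0763). By the same unadjusted p, 2 of the 17 tested catenins and plaque proteins were higher and 0 lower. Of the 7 tested further superfamily genes, 3 were higher and 1 lower, and of the 11 tested nectins and proteases, 3 were higher and 2 lower.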

How the data were processed

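RNA was sequenced from E14 mESCs, WT or Haspin-KO (n = 2 libraries each, groups and replicate numbers from the labels). Per the labels' processing notes and the methods, the authors used Cutadapt (v1.9.1), HISAT2 (v2.0.1, mm10) and HTSeq (0.6.1), and deposited raw counts per gene without normalization. The deposited FPKM values equal counts over exonic length and library total (100% within 0.005). The strand setting, the treatment of multi-mapped reads and the annotation release are not given in the sources used here.

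All genes were fitted together with edgeR (4.0.16) in R (4.3.3): its low-count filter (0.627 CPM), TMM, the quasi-likelihood test without a block, and Benjamini-Hochberg adjustment over 15580 genes. CPM values use TMM-scaled totals. Standard errors are the log2 fold change over the square root of F, and intervals are 95%. Counting intervals are exact binomial (Clopper-Pearson) on summed counts. They leave out the spread between libraries. The members given such an interval were picked because their counts lay on either side of the floor, so an interval without equality is not a test. DESeq2 (1.42.0) was an alternative. The fits were tested on simulated data. Exonic sharing was read from the GENCODE annotation of GRCm38, and promoters from RefSeq.

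The members, gene lists and settings were chosen with earlier results of these data known. Named were members called, those with an unadjusted p under 0.05, up to 4 members with the highest mean FPKM per group, and members over 3 counts in both libraries of one group and neither of the other. Of each list, called genes and the 3 highest by FPKM were named, except 1 gene that is not reported here. All other members in the text and the fibroblast markers that were not called were named after their values were seen. So were Klf4, Perp, Pkp2, Cdhr2, Clstn2, Dnmt3b, Nipbl, Adam10, Nectin4 and Psen2.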

Additional observations from a re-analysis of the deposited data

How the results depend on the processing

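With 2 libraries per group and low counts, the calls near the floor depended on the processing. Against 1 member called lower, the number was 0 with DESeq2, which gave Cdh11 no adjusted p, and 0 with at least 10 counts in every library, a filter that removed Cdh11. It was 2 (Cdh11 and Pcdh7) without the low-count filter, when the p was left unadjusted and the 2-fold limit kept, and with the replicate block. Leaving out 1 library at a time gave 0 to 2 members called lower, with 0 without WT replicate 1 and 2 without Haspin-KO replicate 1, and 0 to 1 called higher, with Cdh4 called without Haspin-KO replicate 2. In these fits Cdh11 ranged from -7.97 to -4.52, Pcdh7 from -6.87 to -2.50 and Cdh4 from 0.77 to 1.26 on the log2 scale. The sign turned when 1 library was left out for Celsr1 (-0.01 to 0.11), Cdh2 (-0.18 to 0.15), Cdh24 (-0.23 to 0.00), Pcdhgb8 (-0.35 to 0.52) and Pcdh19 (-0.03 to 0.23), none of which was called. The adjusted p of Cdh11 lay between 4.05e-10 and 0.0631 over its 8 alternatives with a value, that of Pcdh7 between 0.000416 and 0.279 over 8, and that of Cdh4 between 0.000182 and 0.253 over 10. The order of the highest gamma genes was recomputed after the data were seen, on exonic length unshared with genes of either strand, and 3 of 4 remained. Members at the floor were not detectable at this depth, and their absence is not shown.

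The groups share the replicate numbers 1 and 2, but nothing in the sources ties libraries of one number to a shared preparation, and the correlation of their deviations was 0.289 across genes. The replicate block gave 2 members called lower and 0 higher, and 167 genes lower and 240 higher over all genes, against 78 and 51 without it. With the block, the adjusted p was 0.000416 for Pcdh7, which was called, and 0.000182 for Cdh4 at a log2 fold change of 0.99, under the 2-fold limit. In fits that leave out a library, the lone library of its group is assumed to vary like the other group.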
